A study of Sus scrofa with 26 samples.

Results

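The response of Creole pigs to heat was described in their subcutaneous adipose tissue, the back fat layer under the skin. The members were chosen by their titles, which give breed and temperature, and comprised 8 of the 26 arrays of the series. Of these, 5 arrays came from Creole pigs under heat stress (HS) and 3 from Creole pigs kept thermoneutral (TN). The Creole is a small local breed of the Caribbean raised under tropical conditions, Large White (LW) is a lean commercial breed, and F1 is the cross of both. Each array held the RNA of 1 castrated male pig, labelled with a single dye and hybridised to a porcine 60-base oligonucleotide array. The sample labels put TN at 24 °C and HS at 30 °C, but the series description puts HS at 32 °C and its length at 5 days. All animals entered the climatic room at 11 weeks of age and had 10 days of adaptation. The phase at the TN temperature that followed lasted 9 days. The TN pigs were slaughtered before the temperature rose and the HS pigs after it, so temperature, day of slaughter and age cannot be told apart. Litter and pen are not in the labels. The F1 pigs (5 HS and 4 TN arrays) and the LW pigs (5 HS and 4 TN arrays) served to show where the Creole values differed. Their arrays also entered the estimate of spread behind the Creole test, so the number of calls depended on them.

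White adipose tissue stores triglycerides in adipocytes and makes part of its fatty acids itself from glucose. Around the adipocytes lie blood vessels, fibroblasts that lay down collagen, resident macrophages and dividing precursor cells, and in a growing pig the fat depot still gains cells and vessels. Heat makes pigs eat less, and cells answer a rise in their own temperature with chaperones of the heat shock families, which refold damaged proteins. Because bulk tissue was measured, fewer cells of a type and less RNA per cell cannot be told apart in any of the results.

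The 11 adipocyte marker genes on the array were well above background on all 8 Creole arrays, but so were all 17 of skeletal muscle, 15 of Schwann cells and nerve, 14 of macrophages, 13 of fibroblasts and 11 of endothelial cells, so presence above background does not tell these tissues apart. From 71.6% to 74.4% of probes were well above background on the HS arrays and from 69.7% to 73.1% on the TN arrays, with no difference past the spread between arrays (exact two-sided permutation test, p = 0.179, with 0.0357 the smallest p that 5 against 3 arrays allow). Creole HS arrays 3 and 5 stood apart from the others on the first principal component of the Creole arrays, which held 34.4% of the variance, where array 3 had the highest score and array 5 the lowest, -59.5, against -26.8 to 31.7 for the other 6. The 17 skeletal muscle markers measured had their highest and lowest mean level on the same arrays. Their mean level, centred on the 8 Creole arrays, was 2.33 on HS array 3 and -1.82 on HS array 5 on the log2 scale, and lay between -1.05 and 0.84 on the others. CKM, the creatine kinase of muscle, read 16.43 on HS array 3 and 12.02 on HS array 5 as log2 signal, with 13.48 to 14.55 on the TN arrays. Values without both arrays are given for some of the results, and the part of muscle RNA in them was not tested.

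Heat was accompanied by a small set of changes in which genes of cell division fell together. In limma's moderated test with Benjamini-Hochberg adjustment over 44703 probes, 32 probes (0.0716%) passed an adjusted p of 0.05. Of these, 28 were lower in HS (0.0626%) and 4 were higher (0.00895%). Their log2 changes had a median size of 0.92, against 0.12 for all tested probes. On 31 of the 32 probes the 5 HS arrays did not overlap the 3 TN arrays, where 3.55% of all probes lay wholly lower in HS and 2.76% wholly higher. The probes had been called by these same values, so their size and separation follow in part from the selection. The adjusted p of the called probes ran only from 0.0461 to 0.0494, and the next probe had 0.0533, so the count sits at the edge of the threshold. At an adjusted p of 0.1, 156 probes passed (0.349%), of which 122 were lower and 34 higher. Without HS array 3 the count rose to 205 and without HS array 2 to 131, whereas it fell to 9 without HS array 4 and to 0 without HS array 1 or HS array 5. Without TN array 1, 2 or 3 it was 2, 3 and 1, and without HS arrays 3 and 5 together it was 6, with 3 of the 32 probes among them. Leaving out an F1 or LW array, which shares only the estimate of spread, gave 0 calls for 11 of 18 arrays and 29 to 73 for the rest. In the settings that left out an array and gave 0 calls, from 3563 to 5007 probes had an unadjusted p below 0.05. All 32 probes kept their direction in all 38 settings, and in 37 of these all 32 had an unadjusted p below 0.001. This is no independent support, since the probes had been called from the same arrays. Leaving out an F1 or LW array, moreover, cannot change the direction of a Creole change. Slides 2 and 4 held Creole arrays of both groups, and within them the falling probes had median changes of -0.40 and -1.22. All 32 probes had the same direction within each slide, but the lack of overlap on 31 of them fixed this in advance. A fit with slide as a fixed term called 3 probes. The called probes name 15 genes through 20 probes, and 12 probes have no current gene symbol.

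Bases 1 to 30 of the 60-base probes, from the 5′ end, are shown in lower case for 7 of the 12 called probes without a symbol and for the SLA-3 probe, since the former have no current gene symbol and SLA-3 has close relatives. The probe A_72_P345023 rose and the others fell. The last of these 7 is the exact reverse complement of another probe on the array, so that the pair reads both strands of 1 region.
O11735: agggtgggtagccccactcagtagcaattt
A_72_P196912: cccattcaacctcaactcacttcgatgtag
A_72_P304719: gtgatggtgatggataccactgaactgtgt
A_72_P329143: caaaaagtgtgtttatggaaactggaaatg
A_72_P209562: ttggggacgttggatgcattcattttctgt
A_72_P345023: cctccggagtgtgaggctgcagatattttt
antisens_OTTSUST00000000672: ccctctaccactgacacatccttgagctgc
A_72_P517623 (SLA-3): tcagatcaccaagcgcaagagggaggcggc

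O11735, which the array's design names FAM64A, had the largest change of all called probes. Its log2 signal was 10.18, 10.25 and 10.75 on the TN arrays and 8.24, 9.53, 8.41, 8.54 and 8.78 on the HS arrays, a change of -1.69 ± 0.31 (SE; adjusted p = 0.0461). A_72_P196912 fell by 1.37 on the log2 scale, and A_72_P345023 rose by 0.75, from a mean of 7.79 to 8.54. The antisense probe read 6.09, 6.92 and 7.05 in TN and 5.64 to 5.84 in HS (change -0.94 ± 0.16), while its complement on the other strand changed by -0.40 (unadjusted p = 0.0159).

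**Figure D1:**
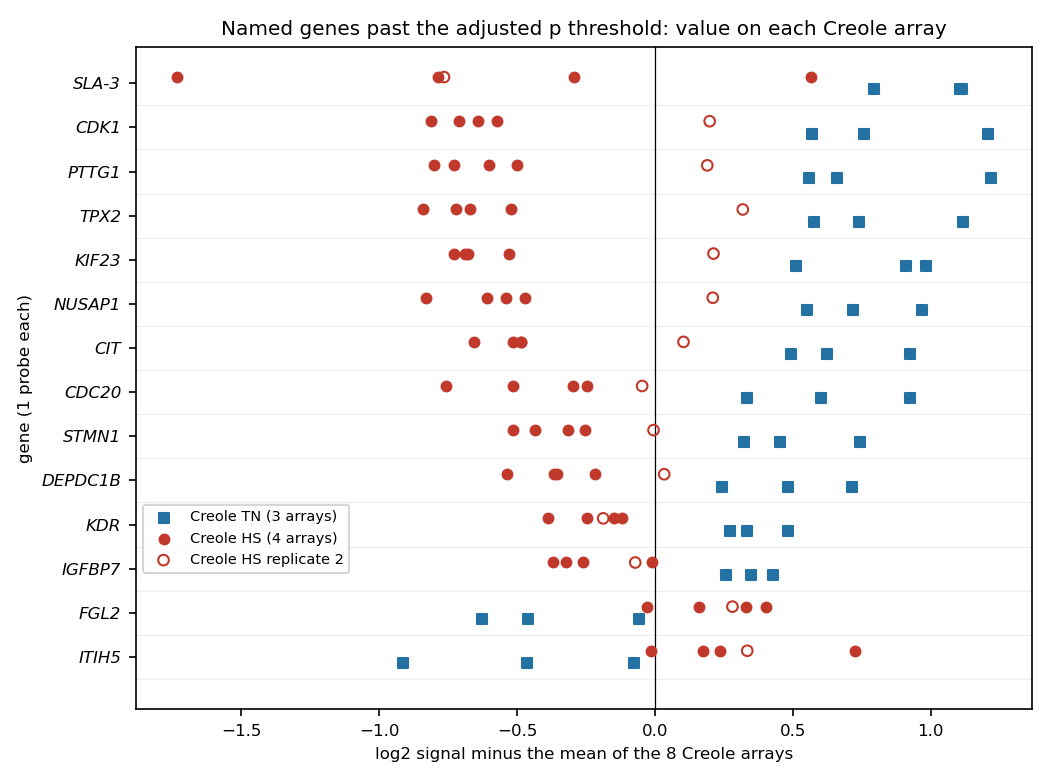
Log2 signal of 14 named genes past the threshold on each Creole array, minus the mean of the 8 arrays (1 probe per gene; squares TN, filled circles HS, open circles HS array 2). For 12 genes the HS points lie to the left of the TN points and for FGL2 and ITIH5 to the right, and for most cell division genes HS array 2 lies nearest to TN.

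Named genes of mitosis past the threshold fell in the HS Creole pigs by up to 2.56-fold. The called genes cover successive steps of division. CDK1 is the kinase that drives entry into mitosis. It read 8.61, 8.42 and 9.06 in TN and 7.21, 8.05, 7.28, 7.04 and 7.14 in HS, a change of -1.35 ± 0.27 (adjusted p = 0.0494). All HS arrays lay below all TN arrays, with HS array 2 closest to them. Without HS arrays 3 and 5 the change was -1.26 and no longer past the threshold. TPX2 and NUSAP1, which build and bundle spindle microtubules, changed by -1.30 ± 0.25 and -1.20 ± 0.23 (adjusted p = 0.0492 and 0.0494). STMN1, which takes microtubules apart, was read by a pair of probes with the same 60 bases under different names, which fell by 0.81 and 0.93.

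Genes of the later steps moved likewise. CDC20, the activator of the complex that starts anaphase, read 6.97, 7.24 and 7.56 in TN and 6.34, 6.59, 5.88, 6.12 and 6.39 in HS (change -0.99 ± 0.19; adjusted p = 0.0461). PTTG1 is securin, the protein that this complex destroys so that chromatids can part. PTTG1 read 9.16, 9.06 and 9.72 in TN and 7.70 to 8.69 in HS (change -1.30 ± 0.25). KIF23 and CIT, which carry out the final cut between daughter cells, also fell, KIF23 by 1.29 and the 3 CIT probes by 1.09, 1.15 and 1.16 on the log2 scale. Of the CIT probes, 2 share a run of 38 bases and are not independent readings. DEPDC1B fell by 0.77. On 19 of the 28 falling probes HS array 2 was the highest HS array, and on 22 TN array 3 was the highest TN array.

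Across a list of 41 cell cycle genes, 30 were measured and 28 of them had a lower value in HS. The median change was -0.57, against -0.01 over the 10323 named genes, and scaling to the 75th percentile moved it by -0.43. At an unadjusted p below 0.05, 22 were lower and none higher, where 6.45% of named genes were lower and 4.77% higher (6.03% and 5.1% of all probes). Of these, 4 passed the adjusted threshold (CDC20, KIF23, TPX2 and NUSAP1, each by its brightest probe). CENPF, a kinetochore protein, changed by -1.34 ± 0.28 (adjusted p = 0.0686), UBE2C by -1.28 ± 0.25 (adjusted p = 0.0533) and RRM2, which supplies deoxynucleotides, by -1.32 ± 0.33 (adjusted p = 0.117), none past the threshold. The list was not uniform. TOP2A read -1.53 and the replication helicase subunits MCM2, MCM3 and MCM6 read -0.86, -0.62 and -0.52, none past the adjusted threshold, while the cyclins CCND1 and CCNE1 read -0.04 and 0.04 and the proliferation marker MKI67 0.03. On 19 of the 30 genes the HS and TN arrays did not overlap, where 3.87% of named genes lay wholly lower in HS. Without HS arrays 3 and 5 the count of 22 became 17, and leaving out single Creole arrays gave 18 to 23.

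**Figure D2:**
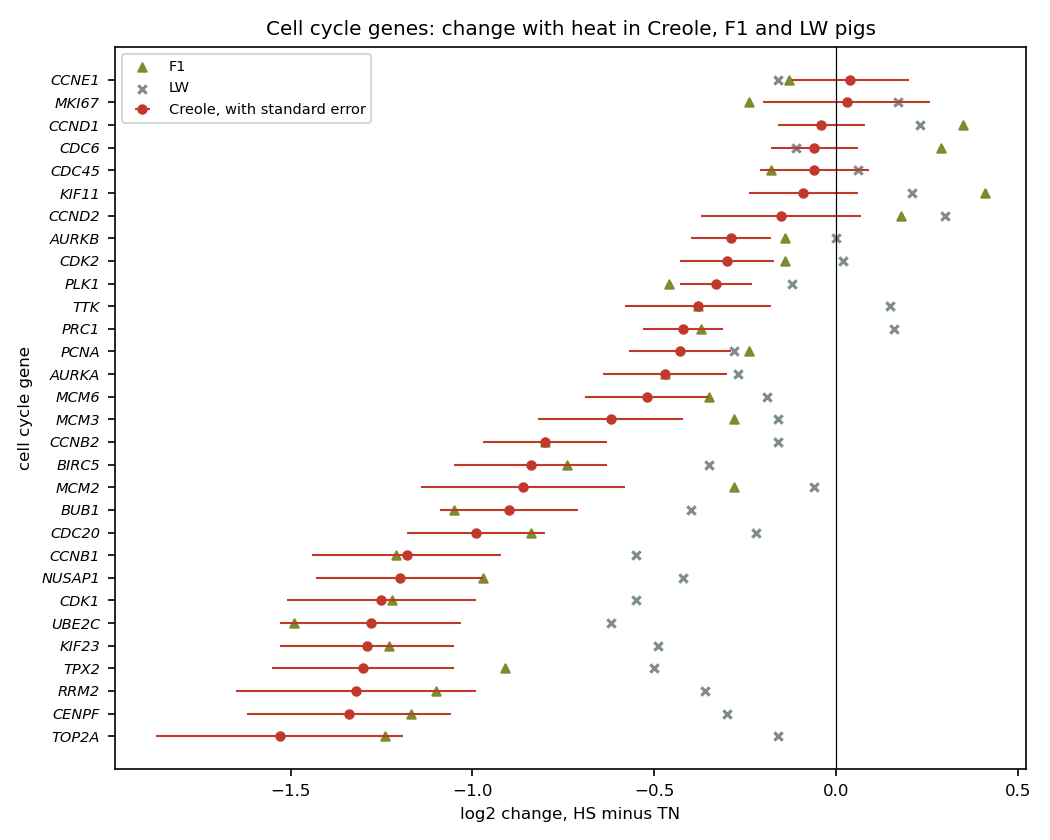
Log2 change from TN to HS of the 30 measured cell cycle genes in Creole pigs (circles with SE), F1 pigs (triangles) and LW pigs (crosses). TOP2A, CENPF and RRM2 lie at the far left in Creole, and CCND1, CCNE1 and MKI67 lie close to 0.

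Genes of the vessel wall were also among the calls. KDR, the main receptor of endothelial cells for the growth factor VEGF, read 9.22, 9.01 and 9.07 in TN and 8.62, 8.55, 8.49, 8.35 and 8.59 in HS, a change of -0.58 ± 0.11 (adjusted p = 0.0461). No HS array reached the TN arrays, and the SD was 0.11 in both groups. Without HS arrays 3 and 5 the change was -0.60 and no longer past the threshold. The 2 other KDR probes changed by -0.38 and -0.16, 1 of them with an unadjusted p below 0.05. IGFBP7, a secreted protein of vessels, fell by 0.55 and 0.50 on its called probes, and of the 4 other IGFBP7 probes beside each, 3 had the same direction with an unadjusted p below 0.05 and the fourth changed by 0.11. On the brighter IGFBP7 probe HS array 3 reached 15.73, the same as TN array 2, so the groups met there. CDH5, the cadherin of endothelial junctions, changed by -0.41 ± 0.12 and RGS5, a pericyte gene, by -0.42 ± 0.12, with unadjusted p of 0.00177 and 0.00138 and neither past the adjusted threshold. The smooth muscle and pericyte list had a median of only -0.07, which was 0.17 without TN array 2. In that list 2 genes were lower at an unadjusted p below 0.05 and none higher, but without TN array 2 there were 1 lower and 2 higher. All 11 measured endothelial markers had lower values in HS, but only CDH5 had an unadjusted p below 0.05 (6.45% of named genes were lower at that p), and the median was -0.13. The 5 measured lymphatic markers had higher values, with a median of 0.29. PROX1, the factor that sets lymphatic identity, read 6.75, 6.52 and 6.35 in TN and 6.87 to 7.25 in HS.

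The genes past the threshold that rose were FGL2 and ITIH5. FGL2 is a fibrinogen-like protein made by macrophages and T cells. Its brighter probe read 11.93, 11.40 and 11.70 in TN and 12.40, 12.41, 12.02, 12.56 and 12.57 in HS, which is 1.64-fold higher (change 0.71 ± 0.13; adjusted p = 0.0461). Its other called probe rose by 0.61, and no HS array overlapped a TN array on either. These changes were 0.78 and 0.72 without HS arrays 3 and 5, where only the latter stayed past the threshold. ITIH5, a hyaluronan-binding protein abundant in fat, read 15.29, 14.84 and 15.68 in TN and 15.74 to 16.48 in HS (change 0.77 ± 0.15; adjusted p = 0.0461), with HS array 4 only just above TN array 3. Its change was 0.67 without HS arrays 3 and 5 and no longer past the threshold.

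The largest rises by the naming rule did not pass the adjusted threshold, and their adjusted p ran from 0.0652 for CD5L to 0.279 for GATM. CD5L, secreted by macrophages, read 7.17, 6.94 and 7.01 in TN and 8.30, 8.55, 7.57, 7.94 and 8.32 in HS, 2.14-fold higher. GPNMB, a glycoprotein of lipid-laden macrophages, was 1.99-fold higher and reached 11.25 on HS array 3 against 9.46 on HS array 2. HIF3A, a hypoxia-inducible factor subunit, read 8.96, 8.64 and 9.25 in TN and 10.33, 10.32, 9.27, 9.93 and 10.56 in HS. PPL, a plakin of cell junctions, read 11.39, 11.81 and 11.27 in TN and 12.11 to 13.08 in HS, while its other probe changed by 0.28. The remaining genes of that set were GATM, an enzyme of creatine synthesis, PCOLCE2, an enhancer of collagen processing, the myelin gene NCMAP, the EGF-family ligand BTC, ANGPTL1 and IGFBP3, with changes from 0.90 to 1.19. The largest falls, each gene taken by its probe with the smallest p, held cell cycle genes together with SLA-3, ME1 and the protease HTRA3. HTRA3 read 8.24, 8.52 and 7.97 in TN and 6.68 to 7.52 in HS (change -1.26 ± 0.26; adjusted p = 0.0595), while its other probe changed by -0.01.

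SLA-3 had the largest fall among the named genes past the threshold. It encodes a class I molecule of the pig major histocompatibility complex, which shows peptides to T cells. The probe read 12.33, 12.64 and 12.65 in TN and 11.24, 10.77, 10.75, 12.10 and 9.80 in HS, 3.05-fold lower (change -1.61 ± 0.31; adjusted p = 0.0494). HS array 4 lay close to TN and HS array 5 lowest, so that the SD was 0.84 in HS and 0.18 in TN. Without HS arrays 3 and 5 the change was -1.17 and no longer past the threshold (limma, adjusted p = 0.117). The other 5 SLA-3 probes had the same direction, each with an unadjusted p below 0.05, and changed by -1.63 to -0.54. On each of these, HS array 4 lay within or above the TN range, and the other HS arrays below it. On the probe with -1.63, HS array 4 read 16.34 against 15.97 to 16.21 in TN. Class I genes of the pig are near-identical and vary between animals, so which SLA gene or allele a probe reads is uncertain, and the alleles of these pigs are not in the files. The brightest probe of SLA-1, another class I gene, changed by -0.07 (unadjusted p = 0.448). Probes of further class I genes varied, SLA-5 with -0.53 (unadjusted p = 0.00811) and -2.09 (unadjusted p = 0.0857), the 4 SLA-8 probes with -0.82 to -0.32, the 2 SLA-6 probes with -0.38 and -0.14 and SLA-7 with 0.12 (unadjusted p = 0.285), while the 5 other SLA-1 probes lay between -0.27 and 0.17. Over the list of MHC and antigen presentation genes, 11 of 19 measured genes were lower and 8 higher, with a median of -0.06. This median turned to 0.04 without HS array 2 and to 0.05 without HS arrays 3 and 5.

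Markers of macrophages had higher values in HS. All 14 measured markers did so, with a median of 0.53, and for 7 the unadjusted p was below 0.05, where 4.77% of named genes were higher at that p, but none passed the adjusted threshold. On 3 of them the HS arrays lay wholly above the TN arrays, where 2.47% of named genes did. VSIG4, a complement receptor of resident macrophages, read 10.81, 9.75 and 10.04 in TN and 10.88, 10.98, 11.07, 11.27 and 10.94 in HS (change 0.83 ± 0.22; unadjusted p = 0.00116). All HS arrays lay above the TN arrays, although TN array 1 nearly reached them. MRC1, the mannose receptor, changed by 0.73 ± 0.24 and CSF1R, the receptor of the macrophage growth factor, by 0.56 ± 0.18, with unadjusted p of 0.00474 and 0.00524. CD68, a pan-macrophage marker, changed by only 0.02, and LYZ by 0.14. The count of 7 fell to 2 without TN array 2 and to 4 without HS array 4, rose to 10 without HS array 2, and was 8 without HS arrays 3 and 5. The median was 0.30 without TN array 2.

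Genes of complement, the blood protein cascade that tags cells and microbes, shared this direction. Of 20 measured, 14 were higher and 8 of these had an unadjusted p below 0.05, where 4.77% of named genes were higher at that p, with a median of 0.37. C5AR1, the receptor for the fragment C5a, read 10.94, 9.96 and 10.21 in TN and 10.88 to 11.81 in HS (change 0.98 ± 0.26). CFD, complement factor D or adipsin, is secreted by adipocytes and read 15.30, 14.98 and 15.26 in TN and 15.43 to 15.97 in HS (change 0.54 ± 0.14; unadjusted p = 0.00106). C1R changed by 0.63 ± 0.18 and C1S by 0.58 ± 0.18. Without TN array 2 the count of 8 fell to 4 and the median to 0.24, and without HS arrays 3 and 5 it was 10. Over 26 measured cytokines and chemokines 12 were higher and 14 lower, with a median of -0.05 that turned to 0.04 without HS array 2 or TN array 2. IL6 read 7.30, 7.57 and 7.91 in TN and 6.45 to 7.21 in HS (unadjusted p = 0.0174), and IL10 changed by 0.44 (unadjusted p = 0.0322). Among 28 measured interferon response genes none had an unadjusted p below 0.05.

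Collagens and other matrix genes had higher values in HS. The counts at a low unadjusted p rested on TN array 2, and so did much of the size, while the medians stayed above 0 without it. Of 22 measured collagens 17 were higher, 8 with an unadjusted p below 0.05 (4.77% of named genes were higher at that p), and the median was 0.30. Of 32 measured genes of the matrix and its remodelling 26 were higher and 5 had an unadjusted p below 0.05, with a median of 0.25. The mean level of 13 fibroblast markers, centred on the Creole arrays, was -0.74 on TN array 2, 0.05 on the other TN arrays and -0.08 to 0.39 on the HS arrays. Without TN array 2 the counts fell to 2 collagens, 0 matrix genes and 0 fibroblast markers, the last from 6, and the medians to 0.12, 0.08 and 0.07, the last from 0.37. Without HS arrays 3 and 5 the counts were 5, 5 and 4, and under scaling to the 75th percentile they were 5, 4 and 1. COL6A3, a microfibril collagen, read 13.83, 13.68 and 14.11 in TN and 14.16 to 15.21 in HS (change 0.64 ± 0.20). CILP, a matrix protein, changed by 1.79 ± 0.59 (unadjusted p = 0.00611), but read 13.36 and 12.94 on HS arrays 2 and 5 and 9.85 to 11.05 on the other HS arrays, against 8.68 to 10.35 in TN. The groups overlapped, and the change rested mainly on 2 of the 5 HS pigs.

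**Figure D3:**
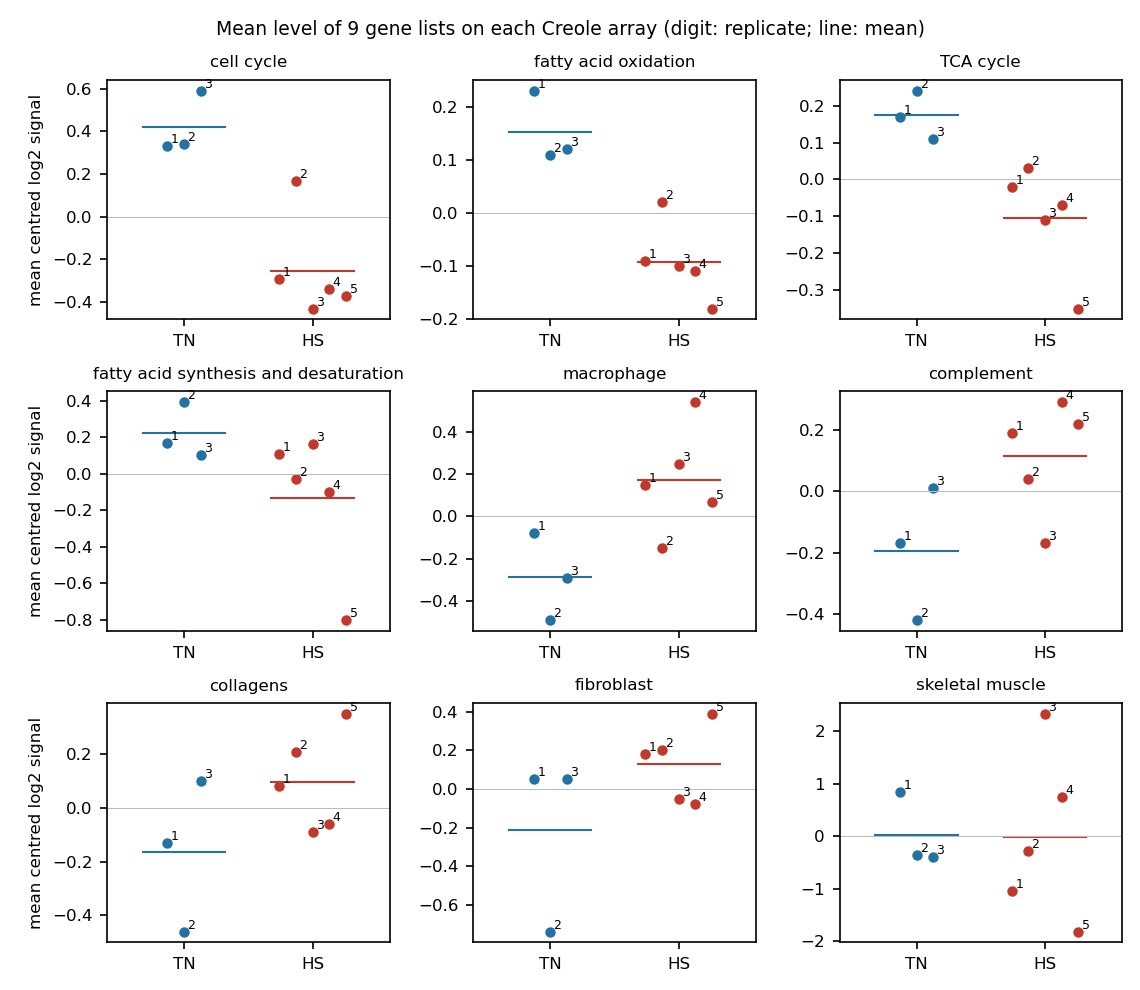
Mean level of 9 gene lists on each Creole array, as log2 signal centred on each gene's mean over the 8 arrays (digits give the replicate, lines the group means). The HS and TN points do not overlap for the cell cycle, fatty acid oxidation and TCA cycle lists; TN array 2 is lowest for fibroblast markers at -0.74 and HS array 3 is highest for skeletal muscle markers at 2.33.

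Genes that burn and make fatty acids had lower values in HS, and no gene of these lists passed the adjusted threshold. Of 24 measured genes of fatty acid oxidation 21 were lower, 11 with an unadjusted p below 0.05, where 6.45% of named genes were lower at that p, with a median of -0.28. ETFDH, which passes electrons from fatty acid oxidation to the respiratory chain, read 12.87, 12.75 and 12.79 in TN and 12.35 to 12.54 in HS (change -0.35 ± 0.10), although its other probe did not share the direction. CPT2, which completes the import of fatty acids into mitochondria, changed by -0.48 ± 0.14 and DECR1 by -0.42 ± 0.13. The count of 11 was 8 to 11 without any single Creole array and 5 without HS arrays 3 and 5.

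All 15 measured genes of the TCA cycle were lower, with a median of -0.26, and 5 had an unadjusted p below 0.05. MDH2, the malate dehydrogenase of mitochondria, read 12.97, 13.18 and 12.93 in TN and 12.49, 12.66, 12.60, 12.34 and 11.49 in HS (change -0.71 ± 0.19). CS, citrate synthase, changed by -0.33 ± 0.10, and its 7 other probes had the same direction with an unadjusted p below 0.05. Without HS array 5, whose list mean was lowest at -0.35, the count of 5 became 2, as it did without HS arrays 3 and 5. It was 3 without TN array 1 or TN array 2, and 10 under scaling to the 75th percentile. The share of 6.45% is the background of these counts as well. In respiratory complex I, 33 of 34 measured genes were lower, with a median of -0.15, but 5 had an unadjusted p below 0.05 and none did without HS arrays 3 and 5. This count was 9 without HS array 1 or HS array 2, 2 without HS array 5 and 1 without TN array 2. Under scaling to the 75th percentile it was 8 and the median was -0.26. The proteasome gave 32 of 36 lower and 9 with an unadjusted p below 0.05, 2 without TN array 2 and 4 without HS arrays 3 and 5.

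Of 21 measured genes of fatty acid synthesis and desaturation 18 were lower, with a median of -0.29, and 4 had an unadjusted p below 0.05, where 6.45% of named genes were lower at that p. The median was -0.16 without TN array 2 and -0.42 without TN array 3. ME1, the malic enzyme that supplies NADPH for lipogenesis, read 14.85, 15.26 and 14.68 in TN and 13.82, 13.87, 14.20, 14.02 and 12.07 in HS (change -1.33 ± 0.44; adjusted p = 0.253), and without HS arrays 3 and 5 the change was -1.03 (unadjusted p = 0.0209). ELOVL6, which lengthens palmitate, changed by -0.82 ± 0.34 (unadjusted p = 0.022). FASN, the fatty acid synthase itself, changed by -0.10 ± 0.11 (unadjusted p = 0.379) on its brightest probe, while its 4 other probes changed by -0.92 to -0.51, 2 of them with an unadjusted p below 0.05. HS array 5 was lowest for the list, with a centred mean of -0.80 against -0.10 to 0.16 on the other HS arrays, and the count of 4 became 1 without it, 1 without TN array 2 and 1 without HS arrays 3 and 5. STAR, the cholesterol carrier of mitochondria, changed by -1.38 ± 0.41 (adjusted p = 0.213), and its 8 other probes had the same direction with an unadjusted p below 0.05. The STAR change was -0.79 without HS arrays 3 and 5. Lipolysis and fatty acid uptake had medians of 0.02 and 0.00, and LPL, lipoprotein lipase, changed by -0.24 ± 0.24 on its brightest probe and by -0.06 to 0.15 on its 6 other probes.

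Heat shock genes showed no common rise. Of the 13 measured members of the HSP70 and HSP110 families 11 were lower, with a median of -0.07. HSPA8, the constitutive HSP70, changed by -0.38 (unadjusted p = 0.186) and HSPH1 by -0.06 (unadjusted p = 0.807). HSP90AA1 changed by 0.05, the heat shock factor HSF1 by 0.02 and the small chaperone HSPB1 by 0.21, none with an unadjusted p below 0.05. HSP90B1, the HSP90 of the endoplasmic reticulum, changed by 0.26 ± 0.09 (unadjusted p = 0.00625) and HSPA12A, a distant HSP70 relative, by -0.66 ± 0.30 (unadjusted p = 0.0352). XBP1, the transcription factor of the unfolded protein response in that compartment, read 14.68, 14.51 and 14.78 in TN and 14.93 to 15.13 in HS, and its 9 other probes had the same direction with an unadjusted p below 0.05. Among the HSP40 co-chaperones 25 of 32 were lower, and DNAJB12 changed by -0.27 ± 0.08 on its brightest probe and by -0.45 ± 0.09 on another (adjusted p = 0.232 and 0.0533).

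Of 31 measured antioxidant enzymes 24 were lower, with a median of -0.10. This median was -0.05 without TN array 2, -0.18 without TN array 3 and -0.19 under scaling to the 75th percentile. PRDX3, the peroxiredoxin of mitochondria, read 15.36, 15.15 and 15.05 in TN and 14.72, 14.86, 15.02, 14.64 and 14.30 in HS (change -0.48 ± 0.14; adjusted p = 0.18), and all 15 of its other probes had the same direction, 11 with an unadjusted p below 0.05. SOD2, the superoxide dismutase of mitochondria, changed by -0.41 ± 0.18 and SOD1, the cytosolic one, by -0.02 ± 0.09. CYBA, a subunit of the superoxide-making NADPH oxidase, changed by 0.39 ± 0.11 (adjusted p = 0.163) without overlap. SGK1, a kinase induced by glucocorticoids, changed by -0.80 ± 0.28 (unadjusted p = 0.00902), and it was the only one of the 17 measured glucocorticoid targets with such a p below 0.05, where 6.45% of named genes were lower at that p. Their median was -0.28, but -0.04 without TN array 1 and -0.10 without TN array 3.

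Of the 11 adipocyte markers 9 were higher and 2 had an unadjusted p below 0.05, CFD and ADIPOQ, where 4.77% of named genes were higher at that p, with a median of 0.05 that was -0.05 under scaling to the 75th percentile. ADIPOQ, the hormone adiponectin, changed by 0.29 ± 0.09 (unadjusted p = 0.00407), reading 17.42, 17.08 and 17.30 in TN and 17.43 to 17.70 in HS, and all 9 further ADIPOQ probes were also higher. CIDEA, a lipid droplet protein, read 15.14, 15.23 and 15.11 in TN and 14.54 to 14.95 in HS (unadjusted p = 0.0023). UCP3, a mitochondrial uncoupling protein, changed by -0.69 ± 0.33 and DIO1, a deiodinase that activates thyroid hormone, by -0.76 ± 0.24, although DIO1 was well above background on only 1 of 5 HS and 2 of 3 TN arrays. Of 15 measured genes of Schwann cells and nerve 9 were higher and 6 lower, with a median of 0.13 (0.05 without TN array 2), and 3 of the higher ones had an unadjusted p below 0.05, with the same 4.77% as background. MBP, a protein of the myelin sheath, read 10.70 to 11.30 in TN and 11.65 to 12.04 in HS (change 0.83 ± 0.34; unadjusted p = 0.0214), and PMP22 changed by 0.43 ± 0.13 (unadjusted p = 0.00274), both without overlap. T cell, B cell and skeletal muscle markers had medians of 0.03, -0.01 and 0.09, none of which kept its sign: over the settings tried they ran from -0.05 to 0.15, -0.10 to 0.09 and -0.52 to 0.48. The muscle median was 0.44 without TN array 1 and -0.14 without HS arrays 3 and 5.

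**Figure D4:**
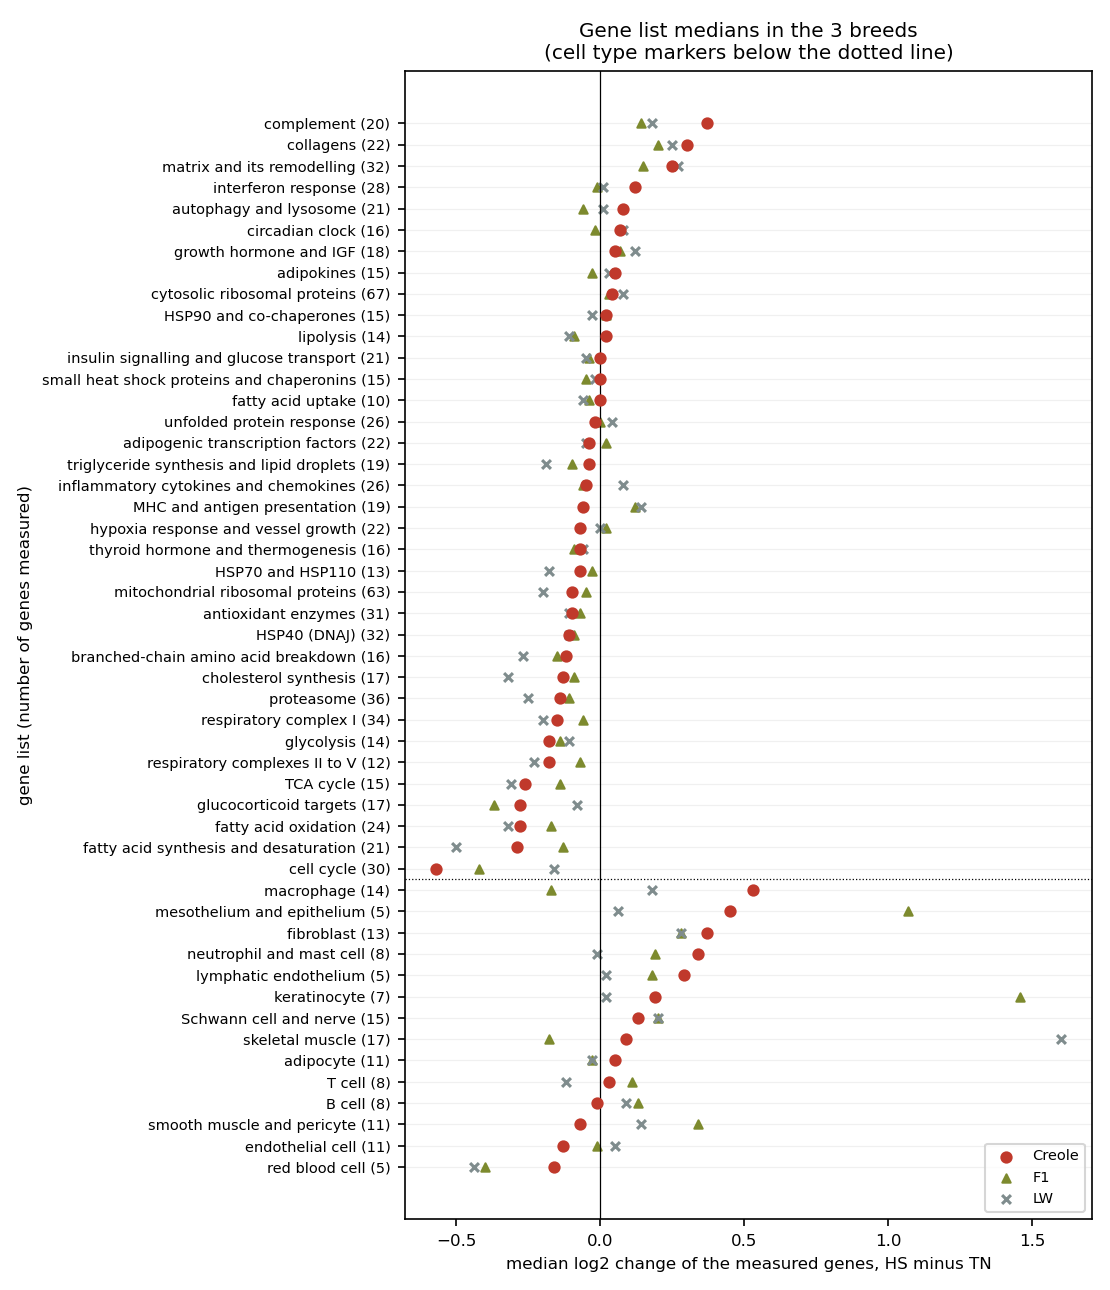
Median log2 change from TN to HS of each gene list in Creole (circles), F1 (triangles) and LW (crosses), with the number of genes measured in brackets. In Creole the cell cycle list lies furthest to the left at -0.57 and macrophage markers furthest to the right at 0.53, where F1 lies at -0.17 and LW at 0.18.

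The same contrast in the other breeds showed which Creole changes had a counterpart. In F1 pigs 188 probes (0.421%) and in LW pigs 669 probes (1.5%) passed the adjusted threshold, against 32 in Creole, where the median standard error of a change was 0.133 against 0.122 in both others. Of the 32 Creole probes 30 had the same direction in F1, where 60.6% of all probes did, and 15 of them passed the adjusted threshold there. In LW 27 had the same direction, where 64.9% of all probes did, and 3 passed. Of the 28 falling probes 24 were lower with an unadjusted p below 0.05 in F1 and 11 in LW, where 8.57% and 9.69% of all probes were. CDK1 changed by -1.31 in F1 (adjusted p = 0.0261) and by -0.53 in LW (adjusted p = 0.276). In the cell cycle list 17 genes were lower at that unadjusted p in F1 and 7 in LW, where 9.3% and 10.3% of named genes were. Beside the same shares, 4 TCA cycle genes were lower in F1 and 10 in LW. For fatty acid oxidation these counts were 7 and 13, and for fatty acid synthesis and desaturation 2 and 12. The medians of these 3 lists were -0.14, -0.17 and -0.13 in F1 and -0.31, -0.32 and -0.50 in LW. Collagens and matrix genes had medians of 0.20 and 0.15 in F1 and 0.25 and 0.27 in LW. The Creole changes were larger than those of both other breeds on 31 of the 32 probes, but these probes had been called by their Creole values.

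No probe differed between the Creole change and the mean of the F1 and LW changes past the adjusted threshold (0 of 44703, 0%, smallest adjusted p 0.613), while 1886 (4.22%) had an unadjusted p below 0.05. The following differences are therefore descriptions. On its called probe SLA-3 changed by -1.61 in Creole and by 0.11 and 0.04 in F1 and LW. All F1 and LW group means lay between 12.70 and 12.93 there, so on this probe the HS Creole pigs alone were low at 10.93. The SLA-3 probes A_72_P515992 and A_72_P609764 changed by 0.99 and 0.65 in F1 (unadjusted p = 0.0263 and 0.028) and by -0.43 and -0.17 in LW. The remaining SLA-3 probes changed by 0.07 to 0.21 in F1 and by -0.07 to 0.22 in LW. DNAJB1, the HSP40 that works with HSP70 on heat-damaged proteins, read 12.14, 12.31 and 12.28 in Creole TN and 11.72 to 12.09 in Creole HS, while it changed by 0.17 in F1 and 0.26 in LW. The change of KDR was -0.58 in Creole pigs against -0.37 in F1 and 0.11 in LW pigs, and its TN level was 9.10 in Creole, 8.99 in F1 and 8.69 in LW. IGFBP3 carries insulin-like growth factors, and its change of 0.90 in Creole pigs stood beside -0.28 in F1 and 0.10 in LW pigs.

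For VSIG4 the change was 0.83 in Creole pigs against -0.21 in F1 and 0.41 in LW pigs. Its Creole TN mean was 10.20 against 10.94 and 10.51 in F1 and LW TN, while the HS means were 11.03, 10.73 and 10.92. For 6 of the 14 macrophage markers the unadjusted p of the difference between breeds was below 0.05, where 4.1% of named genes had one. Among genes whose Creole change lay above the mean of the others, AKTIP had the smallest p. It changed by 0.39 in Creole and by -0.18 and -0.20 in F1 and LW. TOMM20, CMTM6, EAPP and FIG4 followed, with Creole changes from 0.21 to 0.58. TPM4, ZBTB1 and DDR2 completed those in the direction of SLA-3 and DNAJB1, with Creole changes of -0.64, -0.19 and -0.44. Of the 8 other TOMM20 probes 4 shared its direction in Creole. ME1 fell in LW by 1.84 (adjusted p = 0.0225), and its change in Creole did not differ from the mean of the others (unadjusted p = 0.933).

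**Figure D5:**
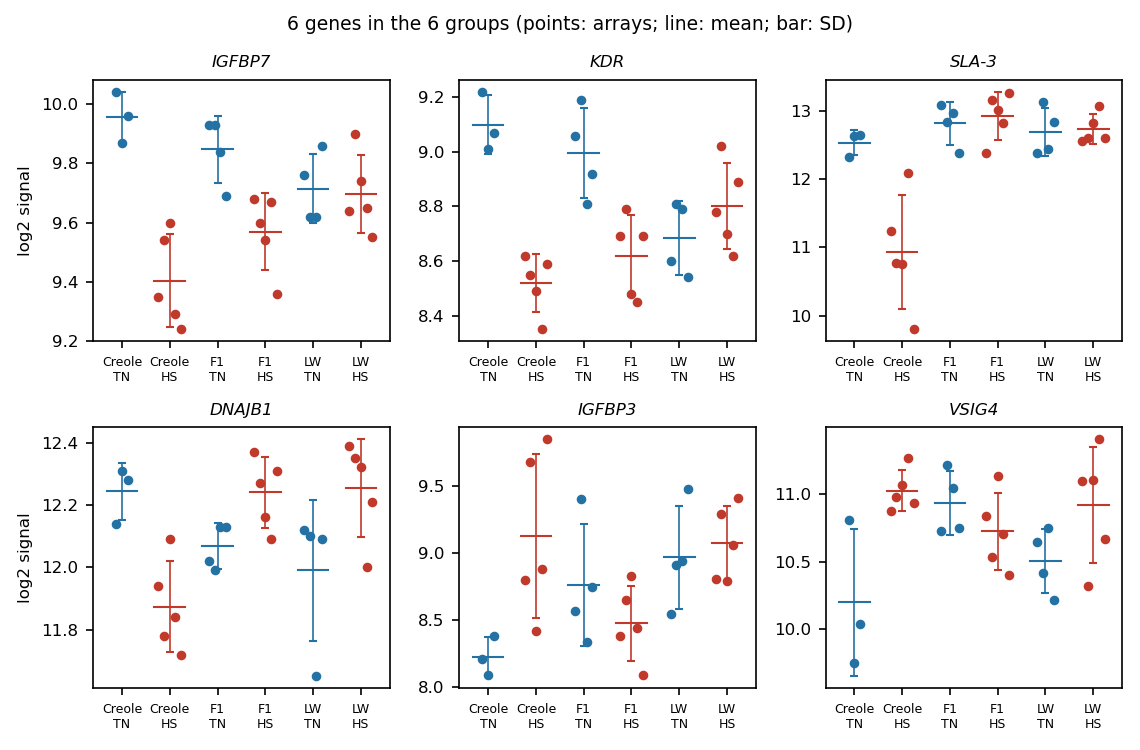
Log2 signal of IGFBP7, KDR, SLA-3, DNAJB1, IGFBP3 and VSIG4 on every array of the 6 groups, with the group mean and SD. For the called SLA-3 probe the Creole HS arrays lie between 9.80 and 12.10 while every other group mean lies between 12.54 and 12.93. For VSIG4 the Creole TN mean of 10.20 is the lowest of the 6.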

How the data were processed

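RNA of the back fat of 26 pigs was hybridised to 1-colour Agilent 8x60K porcine arrays, 1 pig per array. The deposited scanner files hold intensity values per spot, which the authors extracted with Agilent Feature Extraction 10.10.1.1, and a matrix of log2 values that the authors made from the median signals by quantile normalization. Control spots were dropped, non-uniform spots set to missing, the median signals quantile normalized and taken to log2, and a probe was kept where 8 or more arrays read it well above background (44703 of 60305). The deposited matrix correlated with these values at 1.00 on every array, so its scale and direction are known. limma 3.58.1 in R 4.3.3 fitted 6 group means on all 26 arrays with an intensity trend, and the contrast HS minus TN was tested two-sided within Creole with Benjamini-Hochberg adjustment at 0.05. Residual spread was shared by all groups since Creole TN has 3 arrays, and the number of arrays, not read depth, limits the precision. The script was tested on simulated data.

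Replicates were numbered in accession order and pair nothing. The arrays lie on several slides scanned on 1 day. Probes were named through the file's symbols or accessions and a RefSeq gene table of Sscrofa11.1, used for names only, and no coordinates are given because the files name no build. A list holds 1 probe per gene, the brightest over all arrays, and gets counts and medians but no test. Named genes were all genes past the threshold, the 10 largest rises and falls with an unadjusted p below 0.01 and no overlap (by each gene's probe with the smallest p), up to 4 members of each list with the smallest unadjusted p below 0.05, genes that the study or earlier results had singled out, and the 5 smallest p in each direction for Creole against the mean of F1 and LW. Other SLA and heat shock genes, CKM, CD68, LYZ and single cell cycle genes were named after their values were seen. Single genes that met the rule are not reported here. The members and lists were chosen with earlier results of these data known.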

Additional observations from a re-analysis of the deposited data

Results flagged for a closer look

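Within the 5 HS arrays, values that lay far from the nearest other array by Dixon's criterion were sought in the 50 list scores and the 32 called probes, and chance alone puts about 1 in 20 groups past it. HS array 2 was far above the others for the cell cycle list (0.17 against -0.29 for the next) and for CDK1 (8.05), TPX2 (9.01), KIF23 (7.48) and the 3 CIT probes (8.06, 7.78 and 8.11), which share much of their signal and do not count as independent. HS array 5 was far below the others for fatty acid synthesis and desaturation (-0.80 against -0.10). HS array 3 was far above the others for IGFBP7 (15.73 against 15.28).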

How the results depend on the processing

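All 32 called probes kept their direction in every setting, which their choice from these same arrays made likely. The number past the threshold was not stable. It was 1 with the 8 Creole arrays alone (1 higher, 0 lower; 3616 at an unadjusted p below 0.05), 0 in limma with no filter on dim probes (5703 at an unadjusted p below 0.05), 3 with slide as a fixed block (1 higher, 2 lower) and 81 with array weights (16 higher, 65 lower). The number higher was 7 with normexp background correction and 7 with slide as a random block. An adjusted p of 0.1, chosen after seeing the data, gave 156 (34 higher, 122 lower). Without HS arrays 3 and 5, also chosen after seeing the data, it was 6 (1 higher, 5 lower). Leaving out single arrays gave 0 to 205 probes, 0 to 72 higher and 0 to 133 lower, and 0 to 5 probes for Creole against the mean of F1 and LW (5 without HS array 4, 1 without TN array 1). The cause was not tested. Some changes, none past the threshold, turned sign. AHR read -0.00 with normexp, -0.03 with slide fixed, -0.04 without HS array 5 and -0.00 over all its probes. SOD1 read -0.07 to 0.00 without single arrays and 0.01 without HS arrays 3 and 5. TF, the iron carrier, read 0.03 under 75th percentile scaling, 0.33 with slide fixed, 0.03 with slide random, 0.40 with array weights, 0.22 over all its probes, 0.13 without HS arrays 3 and 5 and -1.03 to 0.91 without single arrays. TOMM20 read -0.02 and TNNT3 0.05 (from -0.89) over all their probes, and without single arrays MS4A1 (-0.47 on all arrays) read -0.83 to 0.02, TNNT1 (-0.50) -1.14 to 0.25 and HBB -0.69 to 0.00. Of the other values of named probes, 3445 kept direction and side of the threshold, 334 lost the threshold and 26 gained it. No paired analysis was possible because the replicate numbers follow accession order and pair nothing.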
